A study of Mus musculus with 24 samples.

Results

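Mouse livers taken 72 h after an acetaminophen (APAP) overdose were compared with livers of untreated mice at 0 h, in control and *E2f7*/*E2f8* liver-specific knockout (LKO) mice together. The libraries were chosen by their labels: the 72 h library and the 4 libraries at 0 h of each genotype, which makes 10 of the 24 libraries of the series. All mice were males of 2.5 months on a mixed, predominantly FVB background, and all carried floxed (loxP/loxP) *E2f7* and *E2f8* and the R26R mTmG reporter. LKO mice also carried Alb-Cre, a transgene that recombines loxP sites in cells with an active albumin promoter, while control mice (labelled WT) were littermates without Cre. Mice were fasted overnight for about 16 h. Mice at 0 h were then sampled untreated, and the others received 300 mg/kg APAP and were sampled 72 h later. Each library at 0 h is the RNA of 1 mouse, and each library at 72 h is the pooled RNA of 3 mice. So 72 h is represented by 1 pool per genotype, the spread among mice comes from the 8 mice at 0 h, and a pool stands only for mice alive at 72 h. Whether food was returned after APAP is not stated in the sources used here, so effects of APAP, of time and of the fasted state of the 0 h mice cannot be told apart.

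APAP is converted by cytochrome P450 enzymes, most of all in hepatocytes around the central vein, to a reactive metabolite that consumes glutathione and kills those cells. Surviving hepatocytes then enter the cell cycle, monocytes arrive and become macrophages that clear dead cells, and stellate cells are activated and lay down a temporary matrix until the tissue is restored. E2F1 to E2F3 activate genes of DNA replication, whereas E2F7 and E2F8 repress such genes. The comparison addresses which genes are changed during this regenerative phase in both genotypes, where the genotypes differ in it, and how 72 h stands to 48 and 96 h.

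The libraries held 12665686 to 19499897 reads on genes, with 14939529 in the control pool and 19499897 in the LKO pool at 72 h. Levels are given as CPM, counts relative to the library size scaled by TMM factors over the 10 libraries, and 3 counts correspond to 0.142 to 0.254 CPM, a limit that covers counting error only. *Alb*, the defining hepatocyte product, was at 26080 CPM or more in every library. *Xist* was at most 0.512 CPM and the Y-linked *Ddx3y* at least 40.0 CPM in all 10 (per reads on genes). Hemoglobin genes had no counts in any library, although *Alas2* of the red cell lineage was counted. The reason was not tested, so these zeros do not show whether blood was present. The control pool stood apart from the other 9 libraries in its dependence on transcript length. Relative to the mean of the 8 mice, genes in the shortest of 5 classes of exonic length lay 0.57 higher in it (log2) than those in the longest, against −0.26 to 0.33 in the 8 mice and −0.06 in the LKO pool. The long nuclear RNA *Malat1* was at 115 CPM in the control pool, against 464 to 700.3 at 0 h and 821 in the LKO pool. With the length trend removed from each library, 1500 genes were called higher and 741 lower at 72 h of the 12872 genes with an exonic length, among which 1509 and 755 were called without this step. The part of transcript length in the change of a given gene was not tested beyond that.

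**Figure D1:**
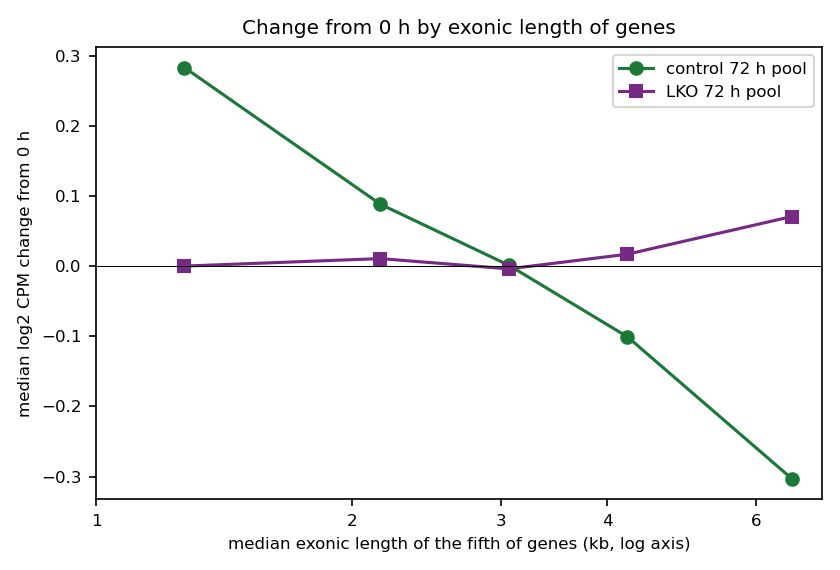
Median change from 0 h (log2 CPM, y axis) of genes in 5 classes of exonic length (x axis, kb, log axis), for the control pool (circles) and the LKO pool (squares) at 72 h. Medians ran from 0.28 in the shortest to −0.30 in the longest class in the control pool and were at most 0.07 in the LKO pool.

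*E2f8* (chromosome 7, 48866429 to 48881596 on GRCm38), a target of the knockout, was at 18.6, 18.0, 16.0 and 11.6 CPM in the 4 control mice and at 21.8, 26.3, 33.5 and 17.6 in the 4 mice labelled LKO. The pools at 72 h had 7.74 CPM in the control pool and 16.5 in the LKO pool. The libraries labelled LKO thus lay mostly above the controls, with overlap. The counts cover the whole gene and the deleted exons cannot be read from them, so they do not check the genotype. *E2f7* (chromosome 10, 110745439 to 110787384) was at 0.116 to 0.492 CPM in the 8 mice, near the limit of 3 counts, and at 4.37 CPM in the control pool and 1.89 in the LKO pool. Directions given for the genotypes below follow the labels.

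Genes are described as called where they changed at least 1.5-fold with an adjusted p below 0.05 in edgeR's quasi-likelihood test with genotype as a covariate and Benjamini-Hochberg adjustment over all 13333 genes tested, and every adjusted p below is from this tool. The log2 change of this fit is 72 h over 0 h, with its standard error (SE). At 72 h, 1560 genes were called higher (11.7% of those tested) and 770 lower (5.78%), and 547 of the former but 26 of the latter changed at least 4-fold. Genes called higher thus made up 67.0% of the called genes, or 78.3% with libraries scaled by their size alone (1758 higher and 486 lower). Over all genes tested the median log2 change was −0.02. Both pools lay above all 8 mice for 2123 genes (15.9%) and below all of them for 1587 (11.9%), and these shares are the background for the counts of single lists. The control pool decides much of the count of called genes, since 429 genes were called higher and 31 lower without it, against 1445 and 877 without the LKO pool. The number called without the control pool is therefore given beside the count of a list where it differs by over 1.5-fold, or the genes of a short list that lost their call are named. Of the 144 genes named in the text that were called, 76 were not called without the control pool, 23 were not called without the LKO pool, and 4 to 16 were not called without 1 of the 8 mice. RNA of whole liver was measured, so fewer cells of a type and less RNA per cell cannot be told apart.

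**Figure D2:**
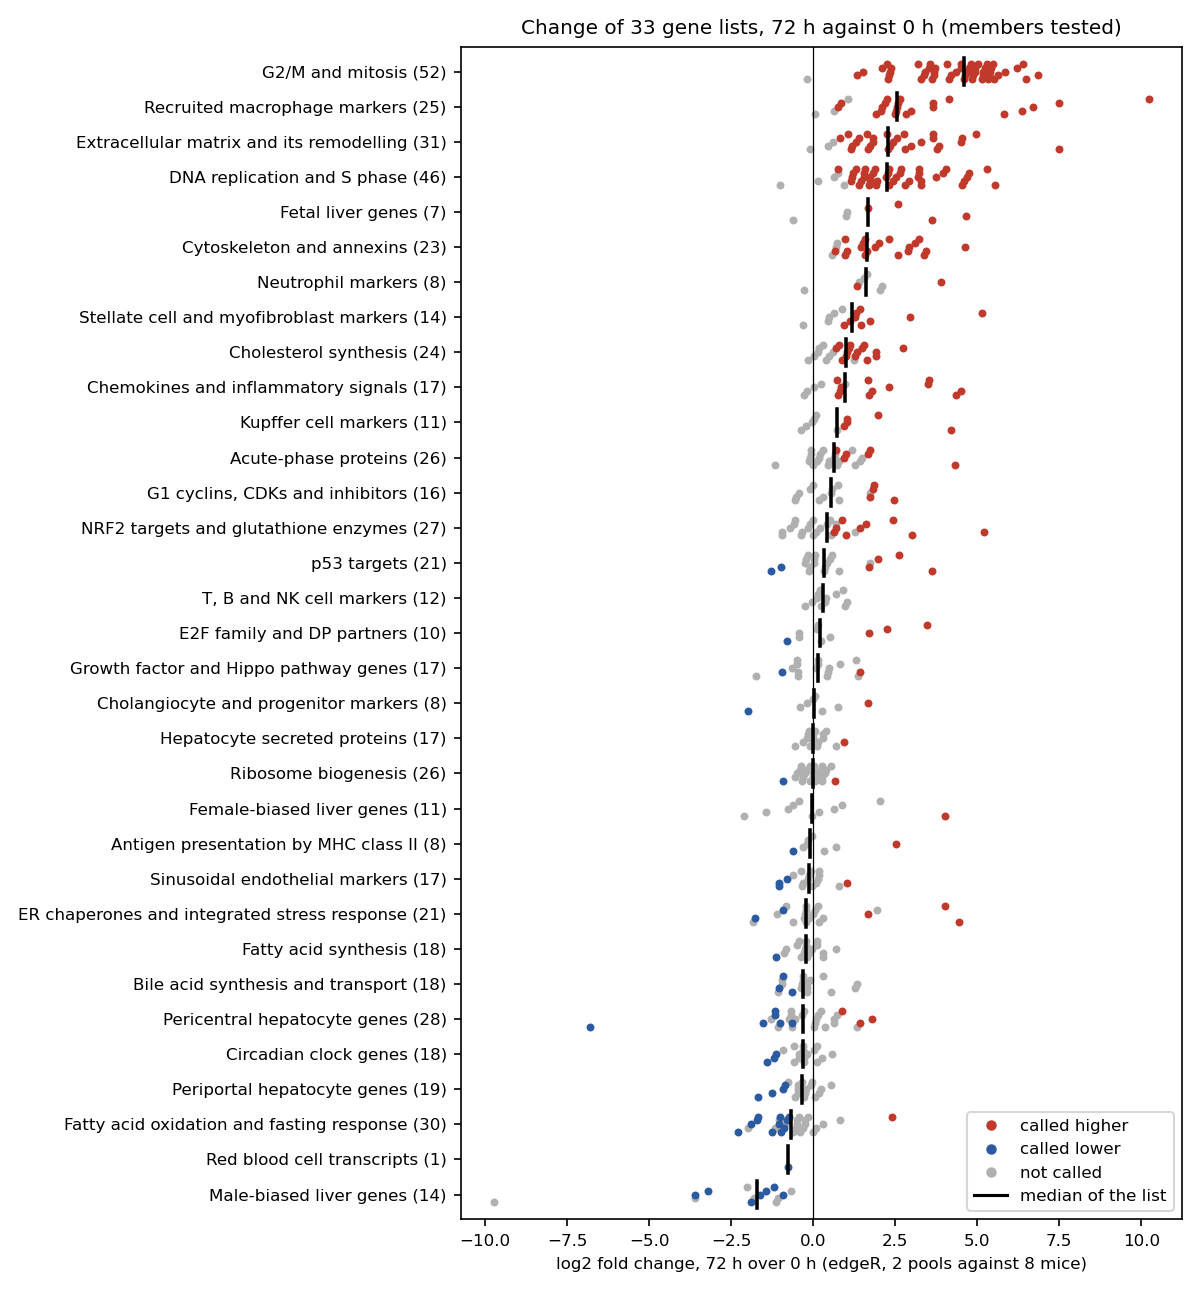
Change of 33 gene lists, with 1 point per gene (x axis, log2 fold change of 72 h over 0 h) and 1 row per list, ordered by the median (black bar), with the number of genes tested in brackets. Genes of mitosis (median 4.61), recruited macrophages (2.56), matrix (2.29) and DNA replication (2.24) lie to the right of 0, and male-biased liver genes (−1.72) and genes of fatty acid oxidation (−0.68) to the left.

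Among genes with a mean of at least 5 CPM over the 10 libraries and both pools outside the range of the 8 mice, the 10 largest increases were mostly in macrophage and cell cycle genes. They were *Gpnmb*, *Mmp12*, *Chil3*, *Ly6d*, *Lgals3*, *Cdc20*, *Top2a*, *Uhrf1*, *Mki67* and *Acta2*. *Gpnmb*, a transmembrane glycoprotein of lipid-laden and phagocytic macrophages, had 11 counts over all 8 mice and stood at 106 CPM in the control pool and 117 in the LKO pool (log2 change 10.24 ± 0.35 SE, adjusted p = 1.92e-08). At so low a level before APAP the fold depends on the prior count, and the same holds for *Mmp12* (23 counts over 8 mice) and *Chil3* (36). *Ly6d*, a small membrane protein known from B cell precursors and epithelia, was at 0.0845 to 1.51 CPM (median 0.831) at 0 h and reached 129 CPM in the control pool and 14.6 in the LKO pool (log2 change 6.20 ± 0.64 SE, adjusted p = 3.96e-05). *Mki67*, the proliferation marker Ki-67, rose from between 0.755 and 3.50 CPM (median 1.35) to 52.8 CPM in the control pool and 61.7 in the LKO pool (log2 change 5.29 ± 0.25 SE, adjusted p = 2.47e-07). For all 10 genes the pools did not overlap with the mice, as the choice of genes required.

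The 10 largest decreases by the same rule were in *Slc1a2*, *9430037G07Rik*, *Elovl3*, *Krt23*, *Cyp26b1*, *Lpin1*, *AW549542*, *Cyp4a32*, *Gadd45g* and *Pim3*. *Slc1a2* (chromosome 2, 102658659 to 102790784), the glutamate transporter GLT-1 of hepatocytes next to the central vein, was at 93.2 to 138 CPM (median 120.1) in the 8 mice. It fell to 0.331 CPM in the control pool and 1.61 in the LKO pool (log2 change −6.80 ± 0.44 SE, adjusted p = 1.47e-06), which left 1.61 CPM or less where the lowest of the mice had 93.2. *Elovl3*, an elongase of very long fatty acids, fell from between 48.5 and 316 CPM (median 79.1) to 9.86 CPM in the control pool and 17.4 in the LKO pool (log2 change −3.21 ± 0.83 SE, adjusted p = 0.0187). *Cyp26b1*, which breaks down retinoic acid, fell from between 3.82 and 20.0 CPM (median 16.1) to 3.64 CPM in the control pool and 1.37 in the LKO pool (log2 change −2.57 ± 0.55 SE, adjusted p = 0.00688). *Gadd45g*, a stress-inducible growth regulator, and *Pim3*, a serine/threonine kinase, had log2 changes of −2.11 and −2.08 (adjusted p = 0.0194 and 0.0136). *9430037G07Rik*, a gene without an established function, had the decrease next to that of *Slc1a2* (−3.91), at 2.21 to 19.3 CPM (median 4.68) in the mice and 0.860 CPM in the control pool and 0.142 in the LKO pool. All 10 of these genes fell in both genotypes, as the choice of genes required. *Slc1a2* alone was called whichever library was left out. The other 9 were not called without the control pool, and 6 of them (*9430037G07Rik*, *Cyp26b1*, *Elovl3*, *Gadd45g*, *Krt23* and *Pim3*) not without the LKO pool either. *Krt23* also lost its call without control mouse 2 or LKO mouse 4.

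Genes of DNA replication rose almost throughout. All 46 genes listed passed the filter on low counts and 41 were called higher (89.1%, against 11.7% of all genes tested, and 24 without the control pool), with a median log2 change of 2.24 against −0.02 over all genes. Both pools lay above all mice for 43 of them. *Mcm2*, a subunit of the replicative helicase, was at 2.18 to 4.29 CPM (median 2.75) in the 8 mice and at 32.3 CPM in the control pool and 25.6 in the LKO pool (log2 change 3.30 ± 0.20 SE, adjusted p = 9.18e-07). *Rrm2*, the regulated subunit of ribonucleotide reductase, was at 1.98 to 12.0 CPM (median 6.41) and then at 49.1 CPM in the control pool and 69.2 in the LKO pool (log2 change 3.23 ± 0.36 SE, adjusted p = 6.43e-05). *Pcna*, the sliding clamp of DNA polymerases, was at 15.3 to 28.2 CPM (median 18.0) and then at 88.1 CPM in the control pool and 64.6 in the LKO pool (log2 change 1.91 ± 0.20 SE, adjusted p = 3.71e-05). Neither pool overlapped with the mice in these 3 genes. Beyond them, the largest changes were in *Exo1*, a repair exonuclease with 5 counts over 8 mice, *Uhrf1*, which guides methylation of new DNA (5.31), *Gins2*, a helicase subunit (4.74), and *Clspn*, the checkpoint adaptor claspin (4.70).

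The 5 genes of this list that were not called were *Mcm10*, *Pola2*, *Tk1*, *Ung* and *Ccne2*. *Mcm10*, a replication initiation factor, was at 87.9 to 256 CPM (median 119.6) at 0 h and lower in both pools, at 52.7 CPM in the control pool and 78.0 in the LKO pool (log2 change −1.01 ± 0.37 SE, adjusted p = 0.0759). Both pools were below every mouse, at a level well above the limit of 3 counts. *Tk1*, thymidine kinase, lay above all 8 mice in both pools but missed the threshold (log2 change 0.74 ± 0.28 SE, adjusted p = 0.0871). Genes with few counts at 0 h could pass the filter through the pools alone, and those that did so had to be higher. Among genes with at least 10 counts in every library, 30 of 34 genes of DNA replication (median 1.82) and 16 of 17 of mitosis (median 3.24) were called higher.

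The promoters of cell cycle genes carry short sequence elements that bind the E2F, DREAM and MuvB complexes, which hold these genes silent in resting cells and switch the early and the late genes on in turn. RefSeq gave a promoter for 36 of 46 genes of DNA replication and for 43 of 52 genes of mitosis, as windows from 250 bases before to 50 bases after the start (GRCm38.p6). An E2F site, spelled TTTCCCGC, TTTGGCGC or TTCCCGCC on either strand, was found in 16 of the 36 genes of DNA replication (44.4%), in 1 of the 43 genes of mitosis (2.33%) and in 6.75% of the 10167 tested genes with a promoter. The CHR element TTTGAA was found on either strand in 30 of the 43 genes of mitosis (69.8%), in 4 of the 36 genes of DNA replication (11.1%) and in 14.5% of the tested genes. CCAAT was found in 76.7% of the genes of mitosis, 58.3% of those of DNA replication and 42.7% of the tested genes. The first and the last of the 3 E2F spellings can overlap, and a gene was counted once. These matches describe the letters and do not show binding, and the 27025 genes of the whole promoter table held them at 3.69% (E2F), 20.2% (CHR) and 41.1% (CCAAT). The 250 bases before the start follow here, in the direction of transcription, for the first 3 genes in the order of each list that hold an E2F site (*Mcm5*, *Mcm6*, *Mcm7*) or a CHR (*Cdk1*, *Top2a*, *Ccnb2*) there, as examples of how these elements lie before genes that rose at 72 h. Since they were picked for holding an E2F site or a CHR, they are no comparison of the lists. Capitals mark these 3 kinds of element on either strand, so that GCGCCAAA is an E2F site, TTCAAA is a CHR and ATTGG is CCAAT, each read from the other strand.
Mcm5, chr8:75109259-75109508, plus strand: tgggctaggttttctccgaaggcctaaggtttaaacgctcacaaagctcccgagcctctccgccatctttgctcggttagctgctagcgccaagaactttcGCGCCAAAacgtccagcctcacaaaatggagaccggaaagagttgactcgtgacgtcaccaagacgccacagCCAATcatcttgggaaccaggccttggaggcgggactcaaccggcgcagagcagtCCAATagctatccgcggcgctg
Mcm6, chr1:128359706-128359955, minus strand: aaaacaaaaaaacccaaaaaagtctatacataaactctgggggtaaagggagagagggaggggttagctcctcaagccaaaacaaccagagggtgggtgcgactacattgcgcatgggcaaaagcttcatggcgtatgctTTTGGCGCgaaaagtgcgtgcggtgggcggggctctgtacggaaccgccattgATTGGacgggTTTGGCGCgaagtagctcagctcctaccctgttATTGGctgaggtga
Mcm7, chr5:138171884-138172133, minus strand, the first of 2 starts: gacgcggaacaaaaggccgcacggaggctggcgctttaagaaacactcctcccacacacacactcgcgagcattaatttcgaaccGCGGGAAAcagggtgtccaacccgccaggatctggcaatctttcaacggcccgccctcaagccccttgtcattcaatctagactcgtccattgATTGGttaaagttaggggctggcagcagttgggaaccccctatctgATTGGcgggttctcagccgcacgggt
Cdk1, chr10:69352913-69353162, minus strand: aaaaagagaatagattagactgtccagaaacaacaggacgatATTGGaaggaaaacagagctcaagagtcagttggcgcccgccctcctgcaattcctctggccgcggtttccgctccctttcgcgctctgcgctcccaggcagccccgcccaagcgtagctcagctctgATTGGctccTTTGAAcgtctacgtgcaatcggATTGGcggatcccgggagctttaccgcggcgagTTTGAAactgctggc
Top2a, chr11:99024190-99024439, minus strand: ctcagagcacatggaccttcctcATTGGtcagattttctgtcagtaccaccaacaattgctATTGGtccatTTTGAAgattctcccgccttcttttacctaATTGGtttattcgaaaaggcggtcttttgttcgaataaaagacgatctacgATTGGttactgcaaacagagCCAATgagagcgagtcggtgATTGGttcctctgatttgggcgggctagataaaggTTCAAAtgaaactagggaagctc
Ccnb2, chr9:70421555-70421804, minus strand: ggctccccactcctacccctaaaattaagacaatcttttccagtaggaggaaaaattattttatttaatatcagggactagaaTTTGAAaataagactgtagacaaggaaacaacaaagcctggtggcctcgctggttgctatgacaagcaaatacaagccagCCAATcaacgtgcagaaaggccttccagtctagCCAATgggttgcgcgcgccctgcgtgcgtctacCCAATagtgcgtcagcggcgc

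The promoters of *Mcm5* and *Mcm7* hold 1 E2F site each and that of *Mcm6* holds 2, while those of *Cdk1* and *Top2a* hold 2 CHR elements each and that of *Ccnb2* holds 1. All 6 hold CCAAT. The log2 changes of these genes at 72 h were 4.61 for *Mcm5*, 3.96 for *Mcm6*, 1.57 for *Mcm7*, 4.82 for *Cdk1*, 5.36 for *Top2a* and 3.67 for *Ccnb2*. *Mcm7*, the helicase subunit with the smallest change of the 3, was at 14.0 to 19.4 CPM (median 17.3) in the mice and at 56.1 CPM in the control pool and 44.2 in the LKO pool, without overlap.

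Genes of G2 and mitosis rose with 1 exception. All 52 genes listed were tested and 51 were called higher (98.1%), with a median log2 change of 4.61. *Cdk1*, the kinase that starts mitosis, was at 0.704 to 2.53 CPM (median 1.21) in the mice and at 44.9 CPM in the control pool and 28.1 in the LKO pool (log2 change 4.82 ± 0.34 SE, adjusted p = 2.12e-06). *Ccnb1*, its partner cyclin B1, had 30 counts over all 8 mice and was at 24.9 CPM in the control pool and 17.4 in the LKO pool at 72 h (log2 change 6.50 ± 0.43 SE, adjusted p = 1.47e-06). *Top2a*, the topoisomerase that untangles sister chromatids, was at 0.492 to 2.31 CPM (median 1.16) and then at 50.5 CPM in the control pool and 52.5 in the LKO pool (log2 change 5.36 ± 0.23 SE, adjusted p = 1.3e-07). All 8 mice lay below both pools in each of these genes. Besides *Ccnb1*, the largest fitted changes were in *Ttk*, *Bub1* and *Nuf2*, genes of the spindle checkpoint and the kinetochore, which had 7, 11 and 23 counts over the 8 mice, so that their fold depends on the prior count. In the pools *Ttk* was at 7.08 and 5.76 CPM, *Bub1* at 7.14 and 6.66 and *Nuf2* at 15.5 and 9.92 (control and LKO). The gene of this list that was not called was *Pttg1*, securin, at 20.0 to 37.9 CPM (median 29.8) in the mice and 24.1 CPM in the control pool and 26.9 in the LKO pool (log2 change −0.19 ± 0.20 SE, adjusted p = 0.549). Summed over the list, the level was 88.2 to 156 CPM in the 8 mice, 1068 in the control pool and 842 in the LKO pool.

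Regulators of entry into the cell cycle were less uniform. Of 18 G1 cyclins, kinases and inhibitors listed, 16 were tested and 4 were called higher (1 without the control pool) and none lower, and the median was 0.55. *Ccnd1*, cyclin D1, was at 15.8 to 40.8 CPM (median 23.9) in the mice, at 146 CPM in the control pool and at 41.4 in the LKO pool, just above the highest of the mice (log2 change 1.83 ± 0.37 SE, adjusted p = 0.00503). *Cdkn1a*, the inhibitor p21, was at 1.19 to 32.2 CPM (median 5.10) with 48.4 in the control pool and 11.2 in the LKO pool, and so overlapped with the mice (log2 change 1.73 ± 1.03 SE, adjusted p = 0.262). *Myc* overlapped as well, at 3.88 to 28.5 CPM (median 8.21) in the mice and 13.8 CPM in the control pool and 8.08 in the LKO pool (log2 change −0.11 ± 0.54 SE, adjusted p = 0.907). The 3 other genes called were *Rbl1*, the pocket protein p107 (2.45), and the CDK inhibitors *Cdkn2c* (1.85) and *Cdkn2d* (1.72).

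Within the E2F family the activators *E2f1* and *E2f2* and the repressor *E2f7* were higher and *E2f8* was lower. *E2f1* was at 2.45 to 5.01 CPM (median 3.54) in the mice and at 15.7 CPM in the control pool and 17.5 in the LKO pool (log2 change 2.24 ± 0.20 SE, adjusted p = 1.55e-05), and *E2f2* had a log2 change of 1.69 (adjusted p = 0.0251). *E2f7* had a log2 change of 3.48 ± 0.39 SE (adjusted p = 7.14e-05), with both pools above all mice. *E2f8* passed the threshold narrowly (log2 change −0.80 ± 0.26 SE, adjusted p = 0.0462), and the LKO pool, at 16.5 CPM, lay within the range of the mice. Without the control pool 2 genes of the family were called higher and 0 lower. *E2f3* to *E2f6* and both DP partners listed were not called. *E2f8* was called in neither direction when any of the control mice 1 to 3, the LKO mice 2 or 3, or either pool was left out.

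Of 21 targets of p53, 4 were called higher (19.05%, against 11.7% of all genes tested) and 2 lower (9.52%, against 5.78%), the other 15 were not called (median 0.32), and without the control pool none was. None was called lower without control mouse 1 or control mouse 2, and 1 without LKO mouse 4 or the LKO pool. *Mdm2*, the ubiquitin ligase that p53 induces against itself, was at 24.8 to 41.1 CPM (median 31.3) at 0 h and 36.4 CPM in the control pool and 29.2 in the LKO pool (log2 change 0.03 ± 0.18 SE, adjusted p = 0.917). *Gdf15*, a stress cytokine, was at 24.7 to 109.9 CPM (median 33.4) and then 60.4 CPM in the control pool and 33.0 in the LKO pool (log2 change 0.03 ± 0.49 SE, adjusted p = 0.973), and *Ccng1*, cyclin G1, missed the threshold with 57.8 CPM in the control pool and 32.5 in the LKO pool (adjusted p = 0.0684). All 3 overlapped between groups. Those called were *Eda2r* and *Tnfrsf10b*, receptors of the TNF receptor family, *Phlda3*, an inhibitor of AKT, and *Pmaip1*, the cell death factor NOXA, on the higher side, and *Plk3* and *Sesn2* on the lower. *Eda2r* was at 0.0682 to 0.362 CPM (median 0.219) in the mice and at 4.76 CPM in the control pool and 1.09 in the LKO pool (log2 change 3.60 ± 0.56 SE, adjusted p = 0.000872). With at least 10 counts in every library required, none of 17 p53 targets was called higher and 2 were called lower. Genes of ribosome biogenesis were mostly not called, with *Npm1*, nucleophosmin, called higher (log2 change 0.67 ± 0.16 SE, adjusted p = 0.0131), *Polr1b*, a subunit of RNA polymerase I, called lower (log2 change −0.91 ± 0.25 SE, adjusted p = 0.0234) and a median of 0.00 over 26 genes. Neither was called without the control pool, and *Polr1b* was not called without the LKO pool.

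**Figure D3:**
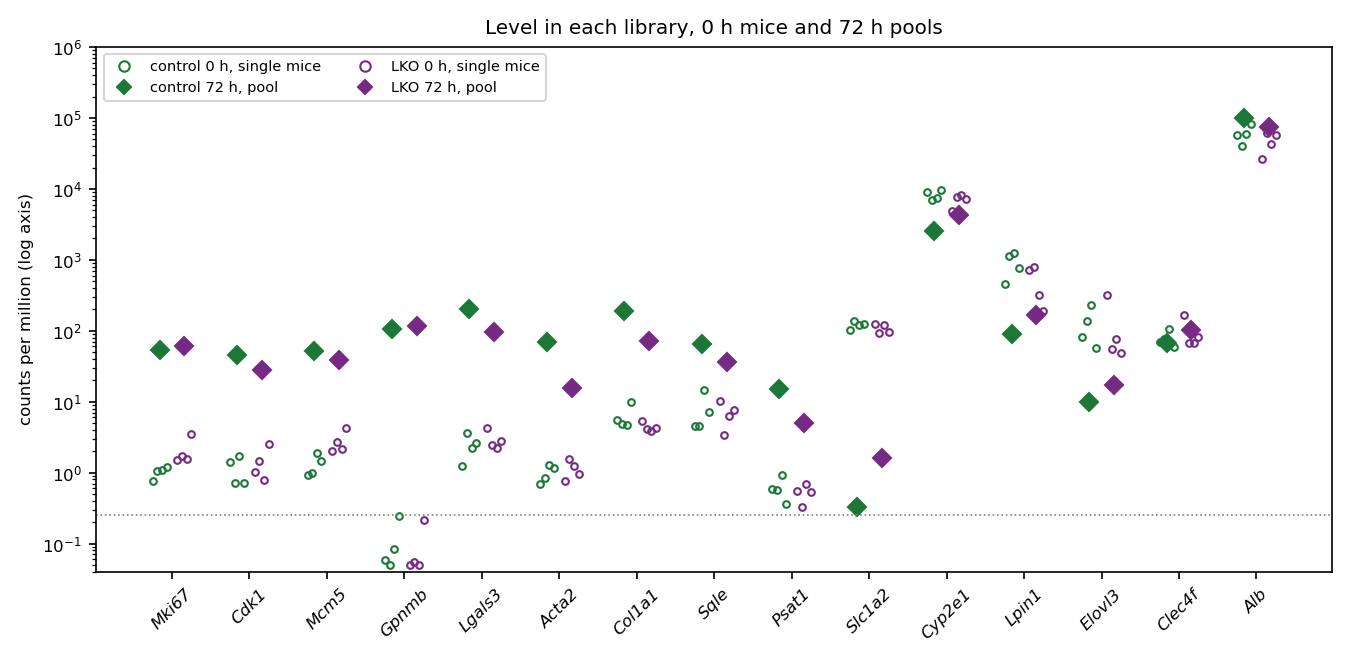
Level of 15 genes in each of the 10 libraries (y axis, CPM, log axis), with open circles for single mice at 0 h and filled diamonds for the pools at 72 h, in green for control and purple for LKO. Values under 0.05 are drawn at 0.05, and the dotted line marks 3 counts in the shallowest library (0.254 CPM). Diamonds lie above all circles for *Mki67* to *Psat1*, below them for *Slc1a2* to *Elovl3*, and among them for *Clec4f*. For *Alb* the control diamond lies above the circles and the LKO diamond among them.

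Genes of the extracellular matrix rose together. All 31 genes listed were tested, and 28 were called higher (90.3%, and 18 without the control pool) and none lower, with a median log2 change of 2.29. *Col1a1* and *Col3a1*, chains of the fibrillar collagens I and III, were at 3.91 to 10.0 CPM (median 4.76) and 15.5 to 36.9 CPM (median 17.1) in the mice. *Col1a1* reached 191 CPM in the control pool and 71.4 in the LKO pool (log2 change 4.51 ± 0.24 SE, adjusted p = 3.76e-07). *Col3a1* reached 381 CPM in the control pool and 221 in the LKO pool (log2 change 3.78 ± 0.24 SE, adjusted p = 1.47e-06). *Timp1*, an inhibitor of matrix proteases, had 19 counts over the 8 mice and was at 11.3 CPM in the control pool and 1.23 in the LKO pool (log2 change 4.96 ± 0.61 SE, adjusted p = 0.000153). In all 3 genes the control pool was higher than the LKO pool and both were above the mice. The others with the largest changes were *Mmp12*, the macrophage elastase, at 40.3 CPM in the control pool and 28.0 in the LKO pool, *Lox*, which crosslinks collagen (4.53), *Col5a2* (3.84) and *Col1a2* (3.65). The genes of the list that were not called were *Fn1*, *Mmp14* and *Ctgf*. *Fn1*, fibronectin, which hepatocytes also make, was at 1160 to 1521 CPM (median 1403) in the mice and 1389 CPM in the control pool and 1183 in the LKO pool.

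Markers of stellate cells and myofibroblasts were called higher for 9 of 14 (4 without the control pool) and lower for none (median 1.19). *Acta2*, smooth muscle actin, was at 0.697 to 1.58 CPM (median 1.06) in the mice, at 68.7 CPM in the control pool and at 15.7 in the LKO pool (log2 change 5.14 ± 0.37 SE, adjusted p = 2.74e-06). *Pdgfrb*, the platelet-derived growth factor receptor of stellate cells, was at 6.47 to 11.4 CPM (median 8.82) and then 31.7 CPM in the control pool and 16.9 in the LKO pool (log2 change 1.47 ± 0.24 SE, adjusted p = 0.0014), and *Lrat*, which esterifies retinol in quiescent stellate cells, was at 8.52 to 15.3 CPM (median 12.0) and then 28.6 CPM in the control pool and 23.5 in the LKO pool (log2 change 1.12 ± 0.20 SE, adjusted p = 0.00203). Contractile genes changed most, *Acta2* followed by *Tagln* (2.94) and *Des* (1.72). The stellate cell genes *Reln*, *Ngfr*, *Colec11*, *Rgs5* and *Ecm1* were not called. *Hgf*, the hepatocyte mitogen that stellate cells secrete, was at 2.73 to 5.21 CPM (median 4.04) at 0 h and 8.86 CPM in the control pool and 13.2 in the LKO pool (log2 change 1.43 ± 0.24 SE, adjusted p = 0.00145).

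Markers of recruited macrophages were called higher for 22 of 25 and lower for none, with a median log2 change of 2.56. *Lyz2*, lysozyme, was at 17.9 to 50.4 CPM (median 24.4) in the mice and at 369.5 CPM in the control pool and 332 in the LKO pool (log2 change 3.65 ± 0.26 SE, adjusted p = 2.6e-06). *Trem2*, a lipid receptor of macrophages that clear debris, had 23 counts over the 8 mice and was at 22.2 CPM in the control pool and 16.3 in the LKO pool (log2 change 6.68 ± 0.31 SE, adjusted p = 2.26e-07). *Lgals3*, the lectin galectin-3, was at 1.22 to 4.23 CPM (median 2.55) and then 205 CPM in the control pool and 97.2 in the LKO pool (log2 change 5.80 ± 0.30 SE, adjusted p = 3.76e-07). Both pools were above every mouse in these genes. *Chil3*, a chitinase-like protein of monocyte-derived and alternatively activated macrophages, was at 50.4 CPM in the control pool and 7.89 in the LKO pool, with 36 counts over the 8 mice. The members not called were *Spp1*, *Cd14* and *Csf1r*, of which the first is also made by bile duct cells.

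Markers of resident Kupffer cells were called higher for 5 of 11 (2 without the control pool) and lower for none (median 0.71), while *Clec4f* and *Timd4* were not called. *Clec4f*, a receptor particular to Kupffer cells in mice, was at 58.8 to 166 CPM (median 72.9) at 0 h and at 66.6 CPM in the control pool and 104 in the LKO pool (log2 change −0.04 ± 0.32 SE, adjusted p = 0.946). *Timd4*, a receptor for phosphatidylserine, was at 2.61 to 6.25 CPM (median 3.18) and 3.70 CPM in the control pool and 4.25 in the LKO pool (log2 change 0.07 ± 0.36 SE, adjusted p = 0.912), and *Vsig4*, a complement receptor, was called higher although the control pool overlapped with the mice (log2 change 0.94 ± 0.30 SE, adjusted p = 0.0449). *Vsig4* was no longer called without either pool, nor without any 1 of the mice other than control mouse 3 and LKO mouse 1. The others called higher were *Marco*, *Cd5l*, *C1qb* and *C1qc*, of which the C1q genes are also expressed by other macrophages. The log2 change of *Cd5l* was 1.78 to 2.19 over 22 alternative fits. *Marco*, a scavenger receptor, was at 1.03 to 3.95 CPM (median 2.21) in the mice and at 45.6 CPM in the control pool and 38.8 in the LKO pool (log2 change 4.19 ± 0.32 SE, adjusted p = 4.44e-06). Within the list *Marco* was 18.3-fold higher at 72 h while *Clec4f* and *Timd4* had fitted log2 changes of −0.04 and 0.07.

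Few markers of other leukocytes were called. Of 15 neutrophil markers listed, 8 were tested. Among these, *Mmp8* and *Csf3r* were called higher, and the defining *S100a8* and *S100a9* were not (log2 change 2.04 ± 0.87 SE, adjusted p = 0.12, and log2 change 1.40 ± 0.66 SE, adjusted p = 0.16). Neither *Mmp8* nor *Csf3r* was called without the control pool, which left 0 called in the list. *Csf3r* also lost its call without the LKO pool, control mouse 1, 2 or 3, or LKO mouse 3 or 4. *S100a8* was at 0.170 to 1.99 CPM (median 0.435) in the mice, 7.28 CPM in the control pool and 0.992 in the LKO pool, so that the LKO pool lay within the range of the mice. Of 16 markers of T, B and NK cells, 12 were tested and 0 were called by edgeR or DESeq2, with 0 at an unadjusted p under 0.05, with *Cd3e* at 0.218 to 1.02 CPM (median 0.604) and 0.794 CPM in the control pool and 0.661 in the LKO pool. Antigen presentation by MHC class II was called lower for *Cd74*, the invariant chain (log2 change −0.63 ± 0.20 SE, adjusted p = 0.0459), higher for *Ctss*, cathepsin S, which macrophages also express (log2 change 2.54 ± 0.25 SE, adjusted p = 2.53e-05), and not called for *H2-Aa* (26.1 CPM in the control pool and 36.8 in the LKO pool, against 25.2 to 40.6 in the mice). *Cd74* was not called without either pool, control mouse 1 or 2, or LKO mouse 1, 3 or 4.

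Chemokines and inflammatory signals were called higher for 12 of the 17 tested of 22 (2 without the control pool) and lower for none (median 0.97). *Ccl2*, the main attractant of monocytes, was at 0.136 to 1.27 CPM (median 0.459) in the mice, at 14.5 CPM in the control pool and at 1.51 in the LKO pool (log2 change 3.49 ± 0.64 SE, adjusted p = 0.00267). *Cxcl1*, an attractant of neutrophils, was called higher (log2 change 1.69 ± 0.43 SE, adjusted p = 0.0169), but the LKO pool, at 25.7 CPM, lay within the range of the mice. *Ccl6* had 2.85 to 8.11 CPM (median 3.92) in the mice and 70.7 CPM in the control pool and 41.7 in the LKO pool (log2 change 3.52 ± 0.33 SE, adjusted p = 1.86e-05), without overlap. *Ccl3* and *Ccl4*, with 11 and 9 counts over the 8 mice, were at 2.45 and 3.04 CPM in the control pool and at 1.61 and 0.661 in the LKO pool. *Il6* had too few counts to be tested.

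Sinusoidal endothelial markers were called lower for 3 and higher for 1 of 17, and none was called without the control pool. *Stab2*, a scavenger receptor of the sinusoid, fell from between 57.1 and 87.5 CPM (median 65.0) to 30.5 CPM in the control pool and 37.7 in the LKO pool (log2 change −1.03 ± 0.20 SE, adjusted p = 0.00398), as did *Dnase1l3* (−1.05) and *Kdr*, the VEGF receptor (−0.81). *Rspo3*, a WNT enhancer made by the central vein, rose from between 2.73 and 4.35 CPM (median 3.37) to 8.67 CPM in the control pool and 5.43 in the LKO pool (log2 change 1.02 ± 0.25 SE, adjusted p = 0.0151). *Clec4g* and *Pecam1* were not called (−0.34 and −0.04), and the median of the list was −0.14. Of 11 bile duct and progenitor markers 8 were tested. *Epcam* fell (log2 change −1.99 ± 0.46 SE, adjusted p = 0.0106), *Cd24a* was called higher with 15.3 CPM in the control pool and 2.41 in the LKO pool against 1.27 to 3.50 in the mice, and had a log2 change of −0.28 without the control pool. *Epcam* was not called without either pool, and *Cd24a* not without the control pool or any 1 of the mice other than LKO mouse 4. *Krt19* and *Sox9* were not called (−0.40 and 0.25). Of the red cell transcripts only *Alas2*, which begins heme synthesis in the red cell lineage, was tested, and it was lower (log2 change −0.76 ± 0.20 SE, adjusted p = 0.0202), but not called without either pool.

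Cytoskeletal and annexin genes were called higher for 20 of 23 and lower for none, with a median of 1.64. *Tuba1b*, a tubulin, was at 34.8 to 58.5 CPM (median 48.6) in the mice and at 228 CPM in the control pool and 124 in the LKO pool (log2 change 1.89 ± 0.20 SE, adjusted p = 5.65e-05), and *Actb*, cytoplasmic actin and a common reference gene, was at 353 to 537 CPM (median 491) and then 843 CPM in the control pool and 669.8 in the LKO pool (log2 change 0.67 ± 0.18 SE, adjusted p = 0.0204). *Anxa2*, a membrane-binding annexin, was at 7.91 to 12.7 CPM (median 10.5) and then at 194 CPM in the control pool and 51.0 in the LKO pool (log2 change 3.43 ± 0.28 SE, adjusted p = 5.56e-06). In each the pools were above all mice and the control pool was the higher of the pair. The calcium-binding *S100a6* and *S100a11*, the galectin *Lgals1* and the actin-binding *Tmsb10* had the largest other changes (4.62, 3.36, 3.21 and 3.11). With the length trend removed from each library, the same number of the list, 20 of 23, was called higher.

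Plasma proteins of hepatocytes changed little by the median of the list. Their summed level was 73500 to 147500 CPM in the mice, 175500 in the control pool, above all mice, and 125200 in the LKO pool. Of 17 tested, 1 was called, *Hpx*, hemopexin (log2 change 0.93 ± 0.23 SE, adjusted p = 0.0144), and the median was 0.01. Without the control pool 0 were called, and without the LKO pool 2. *Alb*, albumin, was at 26080 to 82410 CPM (median 56750) in the mice and at 98800 CPM in the control pool and 74330 in the LKO pool (log2 change 0.70 ± 0.31 SE, adjusted p = 0.13), *Ttr*, transthyretin, at 2714 to 7265 CPM (median 5443) and 6315 CPM in the control pool and 5243 in the LKO pool (log2 change 0.14 ± 0.32 SE, adjusted p = 0.803), and *Apoa1* at 4996 to 10390 CPM (median 8217) and 15770 CPM in the control pool and 5724 in the LKO pool (log2 change 0.40 ± 0.33 SE, adjusted p = 0.419). The pools overlapped with the mice except for *Alb* and *Apoa1* in the control pool, which was above them. Fetal liver genes were called higher for 4 of the 7 tested of 10 (1 without the control pool). *Afp*, alpha-fetoprotein, was at 0.906 to 2.87 CPM (median 1.30) and rose to 24.3 CPM in the control pool and 13.8 in the LKO pool (log2 change 3.61 ± 0.35 SE, adjusted p = 2.28e-05), and the imprinted RNA *H19* was near the limit at 0 h (0.174 CPM or less) and at 2.98 CPM in the control pool and 1.18 in the LKO pool (log2 change 4.66 ± 0.72 SE, adjusted p = 0.000831).

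Acute-phase genes were called higher for 6 of 26 and lower for none, with a median of 0.64, and 1 was called without the control pool. The interaction of genotype and time was not called for any of them. *Lcn2*, the siderophore-binding lipocalin, was at 1.69 to 32.7 CPM (median 7.56) in the mice, at 470.5 CPM in the control pool and at 39.1 in the LKO pool (log2 change 4.32 ± 0.97 SE, adjusted p = 0.00937). *Saa1*, serum amyloid A, varied widely among the mice, at 24.7 to 669 CPM (median 51.6), and was at 249 CPM in the control pool and 33.0 in the LKO pool (log2 change −0.01 ± 1.27 SE, adjusted p = 0.998). *Orm1* was not called either (log2 change 0.71 ± 0.30 SE, adjusted p = 0.118), whereas *Hp*, haptoglobin, was at 2071 to 3156 CPM (median 2733) in the mice, 8240 CPM in the control pool and, within the range of the mice, 2939 in the LKO pool (log2 change 1.00 ± 0.27 SE, adjusted p = 0.0233). *Apcs*, serum amyloid P, rose from between 99.6 and 293 CPM (median 155) to 556 CPM in the control pool and 536 in the LKO pool (log2 change 1.74 ± 0.29 SE, adjusted p = 0.00142).

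Genes of pericentral hepatocytes, the cells that APAP injures first, were called lower at 72 h for 6 of 28 and higher for 3, with a median of −0.31. Without the control pool 2 were called lower and 1 higher, and without the LKO pool 12 lower and 1 higher. *Cyp2e1*, the main enzyme that activates APAP, fell from between 4863 and 9616 CPM (median 7511) to 2507 CPM in the control pool and 4252 in the LKO pool (log2 change −1.16 ± 0.28 SE, adjusted p = 0.0146). *Glul*, glutamine synthetase of the innermost layer of hepatocytes, fell from between 410.2 and 572 CPM (median 468) to 117 CPM in the control pool and 215 in the LKO pool (log2 change −1.54 ± 0.25 SE, adjusted p = 0.00108). *Cyp1a2* was not called, with 631 to 1065 CPM (median 836) in the mice, 402 CPM in the control pool and 955 in the LKO pool (log2 change −0.28 ± 0.29 SE, adjusted p = 0.533). Thus the control pool was below all mice in the 3 genes, and the LKO pool in *Cyp2e1* and *Glul* alone. *Slc1a2* and *Oat*, ornithine aminotransferase, fell with log2 changes of −6.80 and −1.15, while the glutathione transferase *Gstm3* and the amino acid transporter *Slc1a4* were higher (1.42 and 1.78). *Gstm3* lost its call without either pool, nor was it called without any 1 of the mice other than control mouse 4 and LKO mouse 2. The WNT target genes *Axin2* and *Lgr5* were not called (log2 change 0.71 ± 0.29 SE, adjusted p = 0.108, and log2 change −0.65 ± 0.41 SE, adjusted p = 0.288).

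Periportal genes were called lower for 4 of the 19 tested of 20 and higher for none (median −0.34), and none was called without the control pool. *Cyp2f2*, a P450 enzyme of the portal side, fell from between 1348 and 2313 CPM (median 1794) to 918 CPM in the control pool and 982 in the LKO pool (log2 change −0.92 ± 0.21 SE, adjusted p = 0.0117), and *Hal*, histidase, was not called with 191 CPM in the control pool and 463 in the LKO pool against 180.1 to 397 in the mice. *Ass1* had at most 3 counts in any of the 10 libraries and was left out of the test. Why its counts were so low was not examined. The others called were *Pigr*, the receptor that carries antibody into bile (−0.86), and the gluconeogenic *Pck1* and *G6pc*, which fasting induces. *Pck1* fell from between 3467 and 6982 CPM (median 5026) to 1702 CPM in the control pool and 2589 in the LKO pool (log2 change −1.25 ± 0.29 SE, adjusted p = 0.0121). *G6pc* was at 457 to 1304 CPM (median 736) in the mice, 99.9 CPM in the control pool and, within the range of the mice, 474 in the LKO pool (log2 change −1.68 ± 0.53 SE, adjusted p = 0.0441), and lost its call also without control mouse 1 or 2 or LKO mouse 1.

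Genes of fatty acid oxidation and the fasting response were called lower for 11 of 30 (36.7%, against 5.78% of all genes tested) and higher for 1, with a median of −0.68, but 1 was called lower without the control pool. *Cpt1a*, which admits fatty acids to mitochondria, was at 279 to 438 CPM (median 352) and then 289 CPM in the control pool and 259 in the LKO pool (log2 change −0.40 ± 0.19 SE, adjusted p = 0.16). *Fgf21*, a fasting hormone, was at 0.774 to 4.62 CPM (median 2.72) in the mice, 7.41 CPM in the control pool and 1.23 in the LKO pool, and was not called (adjusted p = 0.428). *Lpin1*, a phosphatidate phosphatase and coactivator induced by fasting, had the largest decrease of the list, from between 189 and 1229 CPM (median 736) to 91.0 CPM in the control pool and 169 in the LKO pool (log2 change −2.28 ± 0.63 SE, adjusted p = 0.0244). *Acot1* and *Acaa1b*, of acyl-CoA hydrolysis and peroxisomal oxidation, had log2 changes of −1.89 and −1.72. The gene called higher was *Cyp4a31* (log2 change 2.40 ± 0.55 SE, adjusted p = 0.0104), which has near-identical relatives among which uniquely mapped reads are hard to divide, and it was not called without the control pool. *Pck1* and *G6pc* belong to this list as well. As the mice at 0 h were fasted, effects of APAP and of feeding after it cannot be told apart in these genes.

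Cholesterol synthesis went the other way, with 15 of 24 genes called higher (62.5%, and 8 without the control pool) and none lower, and a median of 1.00. *Sqle*, squalene epoxidase, was at 3.43 to 14.8 CPM (median 6.70) and rose to 64.2 CPM in the control pool and 35.8 in the LKO pool (log2 change 2.75 ± 0.37 SE, adjusted p = 0.000308). *Idi1*, *Msmo1*, *Nsdhl* and *Fdps*, further enzymes of the pathway, had log2 changes of 1.91, 1.90, 1.63 and 1.53. The median change was 1.03 in the control and 1.06 in the LKO livers.

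Fatty acid synthesis was called for *Mlxipl* alone of 18 genes, the glucose-responsive factor ChREBP, which was lower (log2 change −1.15 ± 0.24 SE, adjusted p = 0.00575). *Mlxipl* was not called without the control pool, where the list had 1 gene called higher and 0 lower. It had 2 called lower without the LKO pool, control mouse 4 or LKO mouse 4. *Fasn*, fatty acid synthase, was at 163 to 367 CPM (median 248) in the mice, below them at 112 CPM in the control pool and among them at 327 in the LKO pool (log2 change −0.29 ± 0.34 SE, adjusted p = 0.583), and *Acaca* and *Scd1* were not called (−0.23 and −0.89). Of 18 genes of bile acid synthesis and transport, 3 were called lower (1 without the control pool, and also without control mouse 1, control mouse 2 or LKO mouse 3) and none higher. *Cyp7a1*, the rate-limiting enzyme of bile acid synthesis, was at 31.6 to 144 CPM (median 55.7) in the mice, 55.0 CPM in the control pool and, above all mice, 295 in the LKO pool (log2 change 1.32 ± 0.61 SE, adjusted p = 0.148). *Cyp8b1* and *Slc10a1* were not called (−0.96 and −0.19). *Abcb4*, the phospholipid exporter of the bile canaliculus, fell from between 289.6 and 354 CPM (median 326) to 147 CPM in the control pool and 167 in the LKO pool (log2 change −1.04 ± 0.15 SE, adjusted p = 0.000616), and the organic anion carrier *Slco1a1* and the side-chain hydroxylase *Cyp27a1* were the others called (−0.92 and −0.64). Both lost their call without control mouse 1 or 2, LKO mouse 3 or the control pool, and *Slco1a1* also without LKO mouse 1 or the LKO pool.

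Targets of NRF2 and enzymes of glutathione metabolism were called higher for 9 of the 27 tested of 28 (4 without the control pool) and lower for none (median 0.42). *Nqo1*, the quinone reductase, was at 2.73 to 7.45 CPM (median 4.82) and then 7.34 CPM in the control pool and 12.3 in the LKO pool, the control pool within the range of the mice (log2 change 1.00 ± 0.31 SE, adjusted p = 0.0408), and lost its call without either pool, control mouse 1 or 2, or LKO mouse 3. *Hmox1*, heme oxygenase, which macrophages also express, was at 13.4 to 25.0 CPM (median 18.3) and rose to 131 CPM in the control pool and 82.0 in the LKO pool (log2 change 2.42 ± 0.19 SE, adjusted p = 4.86e-06). *Gclc*, the rate-limiting enzyme of glutathione synthesis, was not called (log2 change −0.34 ± 0.24 SE, adjusted p = 0.336). *Slc7a11*, the cystine carrier, had 2 counts over the 8 mice and was at 0.992 CPM in the control pool and 0.709 in the LKO pool, and *Gsta1*, a glutathione transferase, rose from between 0.169 and 2.56 CPM (median 0.655) to 9.79 CPM in the control pool and 6.75 in the LKO pool (log2 change 3.01 ± 0.60 SE, adjusted p = 0.00474). *G6pdx*, which begins the pentose phosphate pathway, had a log2 change of 1.62 (adjusted p = 0.000181).

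Genes of ER chaperones and the integrated stress response were called higher for 3 and lower for 2 of the 21 tested of 22. Leaving out the control pool left 2 higher and 0 lower, and so did leaving out the LKO pool (2 and 0). *Hspa5*, the chaperone BiP, the factor *Atf4* and its target *Ddit3* were not called (−0.24, −0.01 and −0.23), with both pools among the mice in each. *Psat1* and *Phgdh*, enzymes of serine synthesis, rose. *Psat1* was at 0.326 to 0.929 CPM (median 0.554) in the mice and at 14.9 CPM in the control pool and 5.05 in the LKO pool (log2 change 4.02 ± 0.33 SE, adjusted p = 6.84e-06), and *Phgdh* at 0 to 0.422 CPM (median 0.208) and then 6.35 CPM in the control pool and 2.69 in the LKO pool (log2 change 4.46 ± 0.60 SE, adjusted p = 0.000287). *Chac1*, which degrades glutathione, was lower with overlap (log2 change −1.76 ± 0.51 SE, adjusted p = 0.0317), and was not called without either pool or control mouse 2. Of 18 clock genes, *Nr1d1*, *Per1* and *Bhlhe41* were called lower, and none without the control pool. *Bhlhe41* also lost its call without any 1 of the mice other than control mouse 3 and LKO mouse 2. *Nr1d1*, the repressor REV-ERB alpha, fell from between 178 and 290.2 CPM (median 207) to 53.1 CPM in the control pool and 114 in the LKO pool (log2 change −1.42 ± 0.26 SE, adjusted p = 0.00298). *Arntl* and *Dbp*, which peak at opposite times of day, were not called (0.27 and −0.42). The hour of sampling is not given in the sources used here.

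Male-biased liver genes, which the pulsatile growth hormone of males keeps high, were called lower for 7 of 14 and higher for none, with a median of −1.72. Without the control pool 1 was called lower and without the LKO pool 3. *Hsd3b5*, a steroid dehydrogenase, fell from between 78.3 and 286 CPM (median 206) to 59.3 CPM in the control pool and 65.6 in the LKO pool (log2 change −1.63 ± 0.44 SE, adjusted p = 0.0228), *Cyp4a12a*, a fatty acid hydroxylase, from between 331 and 764 CPM (median 534) to 81.1 CPM in the control pool and 219 in the LKO pool (log2 change −1.89 ± 0.39 SE, adjusted p = 0.00558) and *Mup3*, a major urinary protein, from between 9295 and 19120 CPM (median 12770) to 4678 CPM in the control pool and 4914 in the LKO pool (log2 change −1.44 ± 0.28 SE, adjusted p = 0.00398). *Mup3* and the *Cyp4a12* genes have close relatives, so their separate levels are uncertain. The pools were below all mice in these 3 genes. Of 15 female-biased genes 11 were tested. *A1bg*, a plasma glycoprotein, was called higher, but it was at 0.198 CPM in the control pool and 18.6 in the LKO pool, against 1.52 or less in the mice, so the call rests on the LKO pool, and 3 were called higher without the control pool and 0 without the LKO pool or LKO mouse 2. *Cyp2b9* was at 0 to 142 CPM (median 8.83) in the mice, 2.31 CPM in the control pool and 102 in the LKO pool (log2 change −0.03 ± 1.98 SE, adjusted p = 0.995). The median change of the list depended on how it was computed. It was −0.03 in control and 1.27 in LKO livers with a prior count of 2, −1.22 and 0.65 from mean CPM + 0.5, and −1.80 and 0.70 in edgeR fits of each genotype alone. The interaction was not called for these genes either, and the spread among the 8 mice was wide.

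Growth factors and genes of the Hippo pathway were mostly not called (1 higher, *Hgf*, and 1 lower of the 17 tested of 18). *Ctgf* and *Cyr61*, targets of YAP, had log2 changes of 0.44 and 0.42 and both overlapped between the groups. *Hbegf*, a ligand of the EGF receptor, was at 0.591 to 1.18 CPM (median 0.904) in the mice, 4.37 CPM in the control pool and 0.614 in the LKO pool (log2 change 1.30 ± 0.54 SE, adjusted p = 0.114). *Amotl2*, another gene of the pathway, was lower (log2 change −0.96 ± 0.22 SE, adjusted p = 0.0103). The list had 1 called higher and 0 lower without the control pool, and 3 and 2 without the LKO pool.

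Control and LKO livers changed in the same direction in nearly all called genes, and for most of these the change was the larger in control livers, with 1 pool per genotype. Change within a genotype is given as log2 CPM (prior count 2) of its pool minus the mean of its 4 mice. A larger change in control livers therefore need not mean a higher control pool. *Mki67* changed by 5.54 in control and 4.92 in LKO livers, from means of 1.03 and 2.05 CPM to 52.8 and 61.7 CPM. Across the 13333 genes the changes had a Pearson correlation of 0.73 and a Spearman correlation of 0.59, as a description over genes, which are not independent. Of the 2330 called genes, 2328 had the same sign in both, which the joint test favours. In control livers 3070 genes changed at least 2-fold and in LKO livers 1602, and the median of the genes called higher was 1.88 in control and 1.23 in LKO livers, and that of the genes called lower −0.98 and −0.65. Over all 13333 genes the root mean square of the change was 1.11 in control and 0.79 in LKO livers. Among the 2330 called genes, the change was the larger in control livers for 1940 (83.3%). The choice of genes favours this share, since the control pool decided much of which genes were called. Since the control pool stood apart in its dependence on transcript length, this was recomputed, after the data were seen, with the length trend removed, and the change was then the larger in control livers for 1841 of the 2264 called genes with an exonic length (81.3%), against 1879 before. No single gene passed the test of this difference, the interaction of genotype and time, with edgeR (0 called, 0%, smallest adjusted p = 0.117), although 1059 genes had an unadjusted p under 0.05 (867 of 12872 with the length trend removed) and DESeq2 called 70. With 1 pool per genotype this test assumes that a pool varies like a single mouse at 0 h.

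The genes with the smallest p in the interaction were *Malat1*, *Ugt3a1* and *Abca3*, with the lower value in the control pool, and *Ckap4*, *Apoa4* and *Ly6d*, with the higher value there. *Ckap4*, an anchor of ER sheets, was at 2.45 to 4.36 CPM (median 3.08) in the mice, 30.2 CPM in the control pool and, within the range of the mice, 4.06 in the LKO pool (interaction −3.20 ± 0.44 SE, adjusted p = 0.117). *Apoa4*, a lipoprotein of lipid export, was at 75.8 to 148 CPM (median 102) and then at 6145 CPM in the control pool and 861 in the LKO pool (interaction −2.85 ± 0.49 SE, adjusted p = 0.32). *Abca3*, a lipid transporter, was at 178 to 278 CPM (median 264) in the mice, 40.5 CPM in the control pool and 184 in the LKO pool (interaction 2.21 ± 0.39 SE, adjusted p = 0.32). *Malat1* is the long RNA whose low level set the control pool apart.

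**Figure D4:**
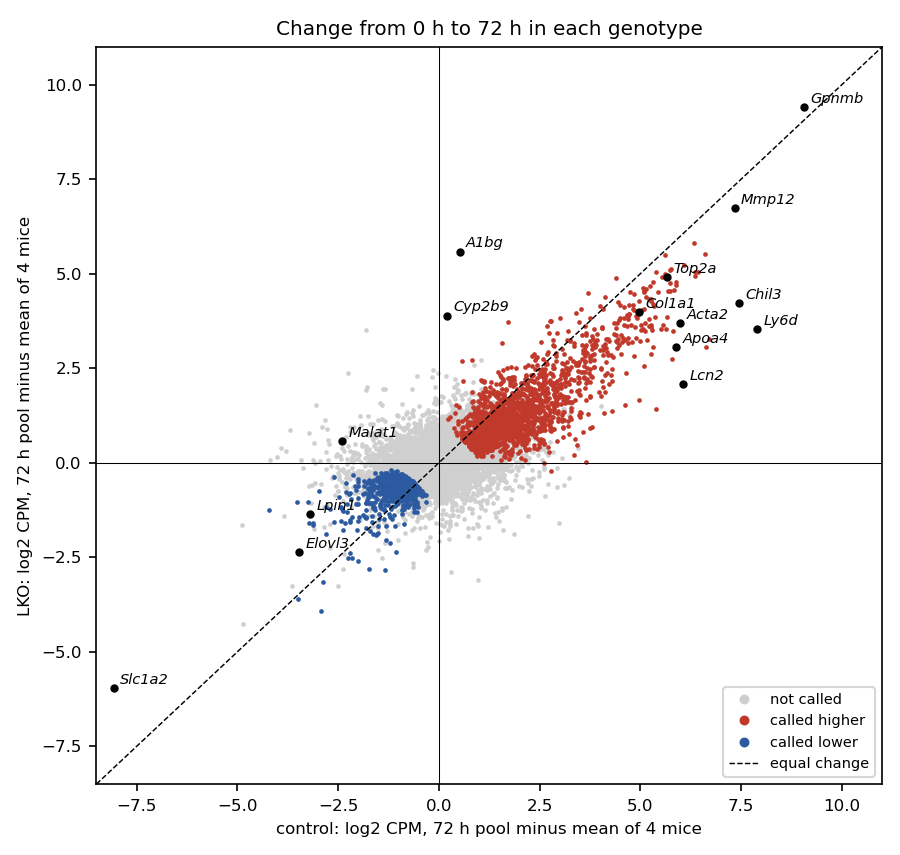
Change from 0 h to 72 h in control (x axis) and LKO livers (y axis), as log2 CPM of the pool minus the mean of the 4 mice, with 1 point per gene tested. Red and blue points were called higher and lower, the dashed line marks equal change, and most called genes lie on the side of the larger change in control livers (1940 of 2330).

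To place 72 h in the course of recovery, the pools at 48, 72 and 96 h (1 per genotype and time) were fitted with the 8 mice, 14 libraries in all, and 13584 genes were tested. Against 48 h, 19 genes were called higher at 72 h (0.14%) and 1 lower (0.00736%), and against 96 h 288 were higher (2.12%) and 3 lower (0.0221%). These comparisons and the one with 0 h share the 72 h pools. Against 48 h the number called higher was 3 without the control pool of 72 h, 2 without the LKO pool of 72 h and 128 (with 161 lower) without the LKO pool of 48 h. Without the control pool of 48 h it was 0 with edgeR, where 676 genes had an unadjusted p under 0.05. Against 96 h it was 44 without the control pool of 72 h, 37 without the control pool of 96 h and 82 without the LKO pool of 96 h.

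The matrix list held more of the genes called against 48 h than any other list. The genes called higher with the smallest p were *Ano1*, *Mfap4*, *Lum*, *Postn* and *Col1a1*, and 8 of the 19 belong to the matrix list. *Col1a1* was at 29.8, 191 and 10.2 CPM in the control pools of 48, 72 and 96 h and at 20.6, 71.2 and 10.2 in the LKO pools (72 h over 48 h, log2 2.29 ± 0.36 SE, adjusted p = 0.0275). *Lum*, the proteoglycan lumican, was at 7.11, 49.8 and 27.2 CPM in the control pools and 11.2, 49.8 and 15.9 in the LKO pools (2.43 ± 0.35 SE, adjusted p = 0.0275). Both were highest at 72 h in both genotypes. *Ano1*, a chloride channel, was lower than at 0 h in the 48 h pools (0.256 and 0.283 CPM, against a mean of 2.41 in the mice) and not called at 72 h against 0 h. The gene called lower than at 48 h was *Sprr1a*, an injury-induced epithelial protein, at 128 and 16.8 CPM at 48 h and 12.4 and 1.32 at 72 h (control and LKO).

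The mitosis list held more of the genes called against 96 h than any other list, followed by that of DNA replication. Of the 288 genes called higher, 45 were of the mitosis list, 17 of the DNA replication list and 14 of the matrix list. *Top2a* was at 26.0, 50.6 and 2.64 CPM in the control pools of 48, 72 and 96 h and at 27.9, 52.4 and 5.49 in the LKO pools (72 h over 96 h, log2 3.74 ± 0.36 SE, adjusted p = 0.000573). *Mcm2* was at 22.4, 32.3 and 3.86 and at 22.4, 25.5 and 6.30 in the same order (2.54 ± 0.30 SE, adjusted p = 0.00102). In each genotype both genes had their highest level at 72 h and were much lower at 96 h. Against 48 h, however, 0 genes of the mitosis list and 0 of the DNA replication list were called. The median change from 0 h of the mitosis list was 2.67, 3.55 and 0.45 in control and 2.30, 3.17 and 0.68 in LKO livers (log2 of CPM + 0.5). The genes called lower at 72 h than at 96 h were *Slc1a2*, *Slc30a10*, an exporter of manganese, and *Serpina7*, thyroxine-binding globulin. *Slc1a2* was at 0.205, 0.331 and 8.86 CPM in the control pools and 0.452, 1.60 and 8.26 in the LKO pools, against a mean of 116 at 0 h.

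**Figure D5:**
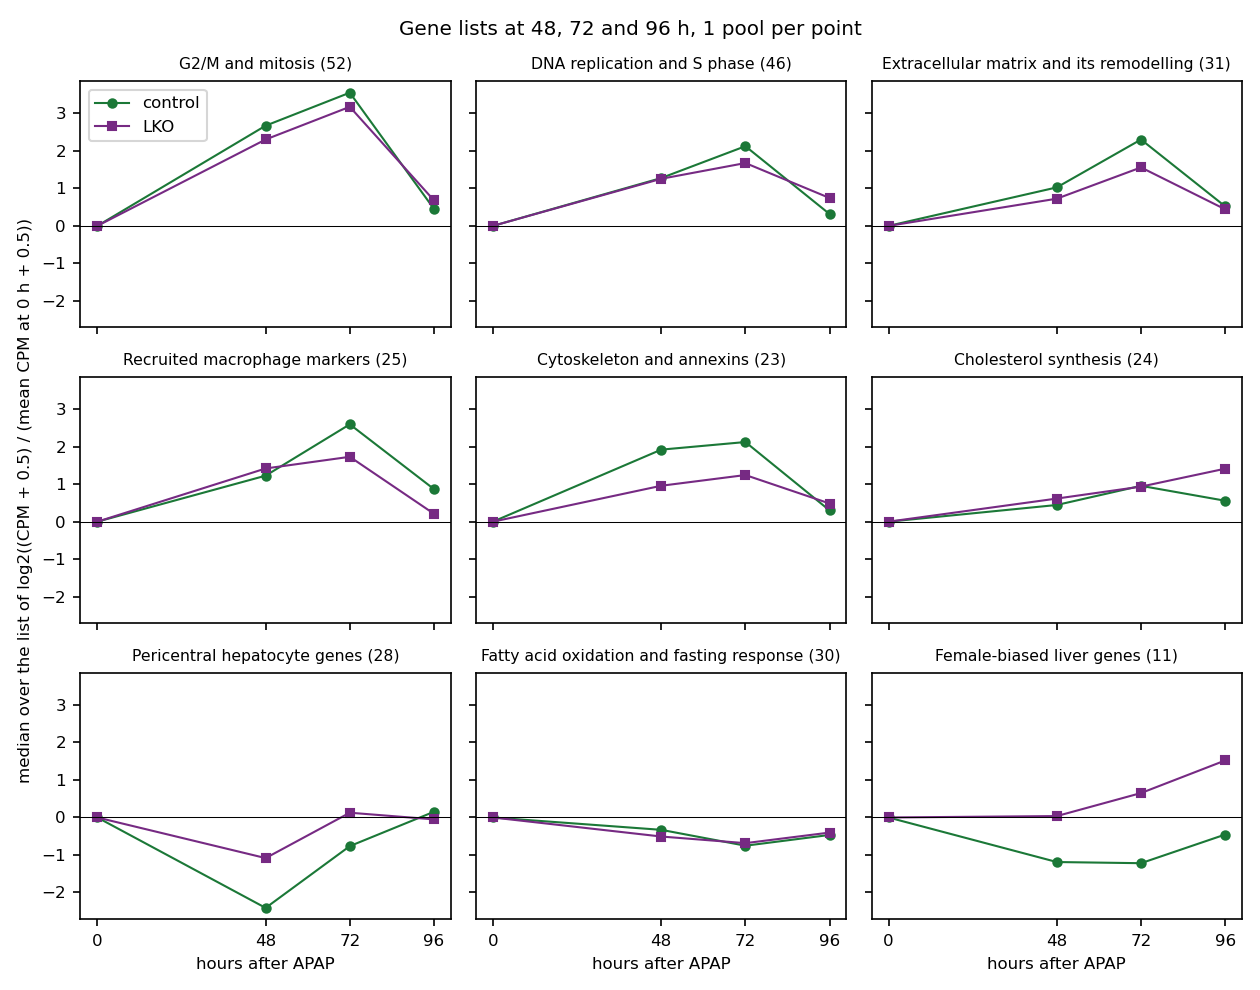
Median change from 0 h (y axis, log2 of CPM + 0.5) of 9 gene lists at 48, 72 and 96 h after APAP (x axis), for control (circles) and LKO (squares), with the number of genes in brackets and 1 pool per point, so no error is shown. The medians of mitosis, DNA replication and matrix are highest at 72 h in both genotypes. For mitosis and DNA replication, 0 genes were called at 72 h against 48 h. Pericentral genes of control livers move from −2.41 at 48 h to −0.76 at 72 h and 0.15 at 96 h.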

How the data were processed

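Liver RNA of 8 mice at 0 h and of 1 pool of 3 mice per genotype at 72 h was sequenced as poly(A) libraries. The authors trimmed the reads and mapped them with STAR to the mm10 genome, and the deposited values are STAR's raw counts of uniquely mapped reads per gene. The unstranded count column was used here, and the 4 entries that name no gene were dropped. Of 24411 genes, 13333 passed edgeR's filterByExpr by time (minimum count 10). Counts were TMM-normalised and fitted with edgeR 4.0.16 (R 4.3.3, quasi-likelihood, genotype and time, 7 residual degrees of freedom), with Benjamini-Hochberg adjustment. Calls needed an adjusted p under 0.05 and a fold of 1.5. CPM and changes within a genotype (log2 CPM, prior count 2) were computed from the counts. The fits were also run on simulated data, and the outcome is not given here. Alternatives were DESeq2 1.42.0, other scalings, filters and sample sets, and leaving out each library.

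The members and gene lists were chosen with earlier results of these data known. Genes named are the first 3 of a list and up to 4 called members with the largest change, the 10 largest changes in each direction at a mean of at least 5 CPM with both pools outside the range of the mice, and the smallest p-values of the other comparisons. Other genes named with a list (uncalled members, remaining called members) were chosen after their values were seen. Some genes that these rules name are not reported here. Coordinates are from GENCODE vM21 (GRCm38), and promoters from RefSeq. Whether mice within a group came from separate litters is not given, so p-values measure the spread between these samples.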

Additional observations from a re-analysis of the deposited data

Results flagged for a closer look

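In 209 named genes, the 4 mice at 0 h of each genotype were searched for a mouse whose gap to the nearest other took up more of the range of the 4 than Dixon's critical value allows. Groups with no mouse above 3 counts were left out, which kept 396 groups, and 34 of them (8.59%) held such a mouse. The critical value would flag about 1 in 20 groups if values were independent and normally distributed. CPM need not be so distributed and genes vary together, so this share alone shows no excess. LKO mouse 1 held more of them than any other mouse, 12.

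LKO mouse 1 was the highest, far from the other 3, for *C1qb* at 57.2 CPM (others 30.4 to 33.0), *Cd5l* at 102 CPM (others 42.8 to 48.6), *Clec4f* at 166 CPM (others 66.2 to 81.5), *Csf1r* at 67.7 CPM (others 31.3 to 36.5), *Elovl3* at 316 CPM (others 48.5 to 75.9), *G6pc* at 1287 CPM (others 631 to 718), *Gdf15* at 109.9 CPM (others 24.7 to 31.9), *Moxd1* at 42.9 CPM (others 0), *Pim3* at 604 CPM (others 168 to 193), *Saa1* at 669 CPM (others 24.7 to 54.3) and *Sesn2* at 17.1 CPM (others 8.70 to 9.97). LKO mouse 1 was the lowest, far from the other 3, for *Eda2r* at 0.0682 CPM (others 0.269 to 0.283). LKO mouse 2 was the highest, far from the other 3, for *Gstm3* at 140.5 CPM (others 53.8 to 64.7). LKO mouse 2 was the lowest, far from the other 3, for *Bhlhe41* at 4.95 CPM (others 10.2 to 11.3) and *Idi1* at 4.24 CPM (others 12.9 to 13.0). LKO mouse 4 was the highest, far from the other 3, for *Clspn* at 0.807 CPM (others 0.109 to 0.204), *Col3a1* at 26.2 CPM (others 15.5 to 17.1), *Lgals1* at 17.4 CPM (others 7.36 to 8.43) and *Mki67* at 3.50 CPM (others 1.499 to 1.69). Control mouse 1 was the highest, far from the other 3, for *Cyr61* at 26.8 CPM (others 10.4 to 12.2). Control mouse 2 was the highest, far from the other 3, for *Pck1* at 6982 CPM (others 4938 to 5233) and *Polr1b* at 28.1 CPM (others 17.4 to 18.8). Control mouse 2 was the lowest, far from the other 3, for *Top2a* at 0.492 CPM (others 1.02 to 1.10). Control mouse 3 was the highest, far from the other 3, for *C1qb* at 45.5 CPM (others 29.98 to 32.3), *Lyz2* at 35.3 CPM (others 21.5 to 23.8) and *Timd4* at 6.25 CPM (others 2.79 to 3.19). Control mouse 3 was the lowest, far from the other 3, for *Abca3* at 197 CPM (others 264 to 264) and *Postn* at 3.55 CPM (others 4.65 to 4.85). Control mouse 4 was the highest, far from the other 3, for *Col1a1* at 10.0 CPM (others 4.73 to 5.58), *Csf3r* at 4.46 CPM (others 1.27 to 1.77), *Cyp2b9* at 107 CPM (others 0.00 to 13.0), *Gstm3* at 205 CPM (others 50.6 to 66.3), *S100a8* at 1.99 CPM (others 0.232 to 0.492) and *S100a9* at 3.50 CPM (others 0.755 to 0.929).

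No explanation was tested for any of these values. At 72 h against 0 h, leaving out the mouse in question ended the call of *G6pc* (LKO mouse 1, adjusted p = 0.0684 with edgeR) and *Abca3* (control mouse 3, 0.0564), and *Csf1r* was called without LKO mouse 1 (0.00566). The difference between genotypes in the change from 0 h to 72 h was called for 0 genes by edgeR, so none stands here for it.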

How the results depend on the processing

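The count at 72 h against 0 h (1560 higher and 770 lower) stayed within 1.5 times the main count under DESeq2 (1650 and 1002), other size factors, other filters, other terms and the first stranded column. It moved to 486 lower with library size alone, and to 363 higher and 14 lower with LKO libraries alone. Leaving out 1 library gave 429 to 1579 higher and 31 to 877 lower, the lowest both without the control pool at 72 h. With the length trend removed, an alternative chosen after seeing the data, the counts were 1500 and 741. Against 48 h (19 and 1), DESeq2 gave 125 higher and 27 lower, genes with at least 10 counts in every library 0 lower and all 18 libraries 2 lower, and leaving out 1 pool gave 0 to 128 higher and 0 to 161 lower. Against 96 h (288 and 3), DESeq2 gave 516 higher and 31 lower, genes with at least 10 counts in every library 135 higher, and leaving out 1 pool 37 to 272 higher and 1 to 17 lower. Library size alone moved the median of all genes in this comparison from −0.04 to 0.10. The interaction, with 0 called, had 70 called by DESeq2 and 1 with genes of at least 1 count, and 0 whichever of the 8 mice was left out. *Cd24a* turned from 1.67 to −0.29 in LKO libraries alone and to −0.28 without the control pool, and had 2.75 without the LKO pool. No paired analysis was possible because the livers at 0 h and those in the pools at 72 h come from different mice. The causes were not tested. The spread among pools is not measured, since each genotype has 1 pool a time, and genes near 3 counts at 0 h (0.142 to 0.254 CPM) have folds set by the prior count.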

Other observations

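Further gene families, chosen by symbol after values were seen, were counted in the comparison of 72 h with 0 h. Genes of cytosolic ribosomal proteins were called higher for 13 of 73 and lower for none, with median changes of 0.73 in control and 0.14 in LKO livers. Short genes as a whole lay higher in the control pool, and with the length trend removed 7 of the 73 were called higher. None was called without the control pool, 5 without control mouse 2, 8 without control mouse 1, 20 without the LKO pool and 22 without LKO mouse 4. Cytochrome P450 genes were called lower for 13 and higher for 5 of 60, with medians of −0.81 and 0.01, but without the control pool 3 were called lower and 2 higher, and without the LKO pool 15 and 3. Kinesins, the motors of the spindle and of transport, were called higher for 13 and lower for 2 of 31 (11 and 0 without the control pool, and 12 and 4 without the LKO pool).

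At 0 h the male-biased *Moxd1* was at 69.1 and 167 CPM in control mice 2 and 3 and at 42.9 in LKO mouse 1, and had no counts in the other 5 mice. The female-biased *Cyp2b9* had no counts in exactly those 3 mice and was at 13.0 and 107 CPM in control mice 1 and 4 and at 142, 4.70 and 27.0 in LKO mice 2 to 4. The pools at 72 h had 0 (control) and 0.0472 (LKO) CPM of *Moxd1* and 2.31 and 102 of *Cyp2b9*. Control mice 2 and 3 and LKO mouse 1 also had the largest shares of unmapped reads, 12.0, 20.6 and 13.5%, against 4.11 to 7.20% in the other 5 mice and 2.63 and 2.90% in the pools, and the part of this in the pattern was not tested.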
